A study of Mus musculus with 15 samples.

Results

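The genes described here are 34 genes of glycolysis and of the response to low oxygen, out of 55471 mouse genes counted in each library. They were taken by symbol from a list that was chosen with earlier results of these data known. They were matched to the counted Ensembl identifiers through the GENCODE M21 annotation, and all 34 were found. By role they are 18 enzymes of glycolysis and lactate formation, 4 transporters of glucose and lactate, 2 kinases of pyruvate dehydrogenase, the oxygen-regulated factor gene Hif1a, and 9 hypoxia targets outside glycolysis. The study sequenced polyadenylated RNA from E14 mouse embryonic stem cells (mESCs) and from embryoid bodies (EBs), aggregates that form when mESCs differentiate in suspension, with 3 libraries in each of 5 groups. The first group was NSD1-dTAG knock-in cells differentiated as EBs for 6 days with 500 nM dTAG-13 for those 6 days. The second was nontreated NSD1-dTAG EBs of the same age. The third was nontreated NSD1-dTAG mESCs. The fourth was wild-type mESCs given 500 nM dTAG-13 for 72 h, and the fifth was nontreated wild-type mESCs. NSD1 is a histone methyltransferase, the dTAG knock-in fuses a degradation tag to it, and dTAG-13 is the small molecule that directs tagged proteins to degradation. All groups derive from the E14 line; mESCs were kept in medium with LIF and inhibitors of MEK and GSK3, and EBs in medium with fetal bovine serum and neither LIF nor inhibitors. The labels do not say how many NSD1-dTAG clones were used. Neither EBs from wild-type cells nor NSD1-dTAG mESCs given dTAG-13 were analysed here, so a response to dTAG-13 in EBs cannot be told apart from an effect of the compound itself.

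Glycolysis converts glucose to pyruvate in the cytosol, and lactate dehydrogenase converts pyruvate to lactate, which monocarboxylate transporters carry out of the cell. Several of its steps are run by paralogous enzymes with different tissue distributions. When oxygen is low, the HIF alpha subunits escape prolyl hydroxylation and degradation, bind DNA at sites with the core ACGTG or GCGTG, and raise transcription of glycolytic genes and of genes for angiogenesis, mitophagy, collagen modification and HIF hydroxylation itself. Pluripotent mouse cells are known for high glycolytic activity.

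The libraries held between 18704591 and 29103958 gene counts. ERCC spike-ins, RNAs added in known amounts, took 0.292 to 0.496% of counts in each mESC library and had no count in any EB library, so EBs and mESCs differ in handling as well as in state. In each group 1 library had the shortest count-weighted exon length and the highest ribosomal protein share of the 3: EB dTAG-13 library 3, EB nontreated library 3, NSD1-dTAG mESC library 1, wild-type dTAG-13 library 3 and wild-type nontreated library 1. Values without these 5 libraries are given where they change a call. The 5 were picked from these same data, and the fits without them hold 2 libraries a group. Between those 2 libraries, chi-square over degrees of freedom (1 is sampling noise) was 1.47 to 11.7. It was 12.6 to 96.1 for pairs with the library left out. Calls without these 5 libraries therefore rest on a smaller spread between libraries than those of the main fits. The mESC markers summed to 1605 to 1986 RPKM in mESC libraries, and the mesoderm markers to 99.2 to 259 RPKM in nontreated EBs. Nsd1 transcript, which dTAG-13 does not target, lay between 10.4 and 23.5 RPKM over all 15 libraries and did not pass the test in any comparison. The labels name biological replicates without saying what was separate, so p-values measure the spread between these libraries.

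A few stretches upstream of annotated starts are shown, because their genes carry the main contrasts below: Bnip3 and P4ha1 for the hypoxia targets with the highest levels in EBs, and the 3 enolase genes for paralogs that moved differently. They are the 250 bases before the RefSeq start in build GRCm38.p6, written along the gene's strand, at chr7:138909507-138909756 (minus strand) for Bnip3, chr10:59323046-59323295 (plus strand) for P4ha1, chr4:150236458-150236707 (plus strand, the first of 3 listed starts) for Eno1, chr6:124769674-124769923 (minus strand) for Eno2 and chr11:70656926-70657175 (plus strand) for Eno3. Capitals mark ACGTG or GCGTG on either strand, so that a match on the other strand reads as CACGT or CACGC.
Bnip3: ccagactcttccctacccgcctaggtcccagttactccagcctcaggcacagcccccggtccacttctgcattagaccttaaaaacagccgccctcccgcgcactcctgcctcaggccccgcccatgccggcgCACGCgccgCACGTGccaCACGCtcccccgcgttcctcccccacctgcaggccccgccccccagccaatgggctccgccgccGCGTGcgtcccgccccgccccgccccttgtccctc
P4ha1: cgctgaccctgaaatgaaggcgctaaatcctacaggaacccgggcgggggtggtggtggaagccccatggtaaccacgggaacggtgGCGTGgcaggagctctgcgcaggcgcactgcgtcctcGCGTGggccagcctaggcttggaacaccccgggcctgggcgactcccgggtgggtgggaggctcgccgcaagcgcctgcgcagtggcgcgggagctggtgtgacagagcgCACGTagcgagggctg
Eno1: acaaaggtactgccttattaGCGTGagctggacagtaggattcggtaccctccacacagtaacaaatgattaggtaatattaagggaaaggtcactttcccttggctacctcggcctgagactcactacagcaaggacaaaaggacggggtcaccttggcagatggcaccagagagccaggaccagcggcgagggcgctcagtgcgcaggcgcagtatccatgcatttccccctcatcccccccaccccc
Eno2: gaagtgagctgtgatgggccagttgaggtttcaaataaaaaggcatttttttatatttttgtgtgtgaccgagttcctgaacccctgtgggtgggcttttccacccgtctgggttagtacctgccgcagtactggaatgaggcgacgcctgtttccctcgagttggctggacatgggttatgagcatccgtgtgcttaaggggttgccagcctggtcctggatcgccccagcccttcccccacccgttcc
Eno3: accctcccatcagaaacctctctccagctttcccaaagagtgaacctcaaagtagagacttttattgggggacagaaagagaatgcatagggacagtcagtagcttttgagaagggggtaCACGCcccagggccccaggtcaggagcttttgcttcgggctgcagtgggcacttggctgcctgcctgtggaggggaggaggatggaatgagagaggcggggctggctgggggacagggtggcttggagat
The Bnip3 stretch holds 5 matches and P4ha1 holds 3, against 1 each for Eno1 and Eno3 and 0 for Eno2. These stretches do not stand for their roles. The 250 bases before a start held 0 (first Vegfa start) to 4 (Ankrd37) matches in the other hypoxia targets. In the other enzymes they held 0 (Gpi1, among others) to 5 (first Ldha start). The stretches before the other 2 listed Eno1 starts, which overlap each other, hold 2 each. In full 300-base windows (250 bases before and 50 after a start), 8 of the 8 hypoxia targets with a window and 15 of the 18 enzymes held at least 1 match in at least 1 window, beside 46.7% of all 27025 genes with a window. Base composition was not matched in that count. Slc2a3 and Ndrg1 were not in the promoter table. Overlapping matches count separately, so the palindrome CACGTG counts as 2. Ldha, with 7, had the most matches in 1 window among the 34 genes.

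Levels are given as RPKM, read counts scaled to exon length and library size, the sizes adjusted by TMM factors over all 15 libraries, so that genes and libraries share one scale. The enzymes dominated: the 18 together took 1.15, 1.19 and 1.17% of all gene counts in dTAG-13 EBs, 1.42, 1.35 and 1.53% in nontreated EBs, 1.36, 1.28 and 1.22% in NSD1-dTAG mESCs, 1.09, 1.10 and 1.16% in dTAG-13 wild-type mESCs and 1.18, 1.14 and 1.11% in nontreated wild-type mESCs. The shares of dTAG-13 EBs lie below those of nontreated EBs, and the shares of NSD1-dTAG mESCs lie above those of wild-type mESCs, without overlap in either case. The 9 hypoxia targets took far less, 0.0380, 0.0363 and 0.0395% in dTAG-13 EBs, 0.0509, 0.0488 and 0.0479% in nontreated EBs, 0.0155, 0.0159 and 0.0145% in NSD1-dTAG mESCs, 0.0121, 0.0123 and 0.0124% in dTAG-13 wild-type mESCs and 0.0137, 0.0132 and 0.0134% in nontreated wild-type mESCs. All 6 EB libraries lie above all 9 mESC libraries for the hypoxia targets, whereas the enzyme shares of EBs and mESCs overlap.

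**Figure D1:**
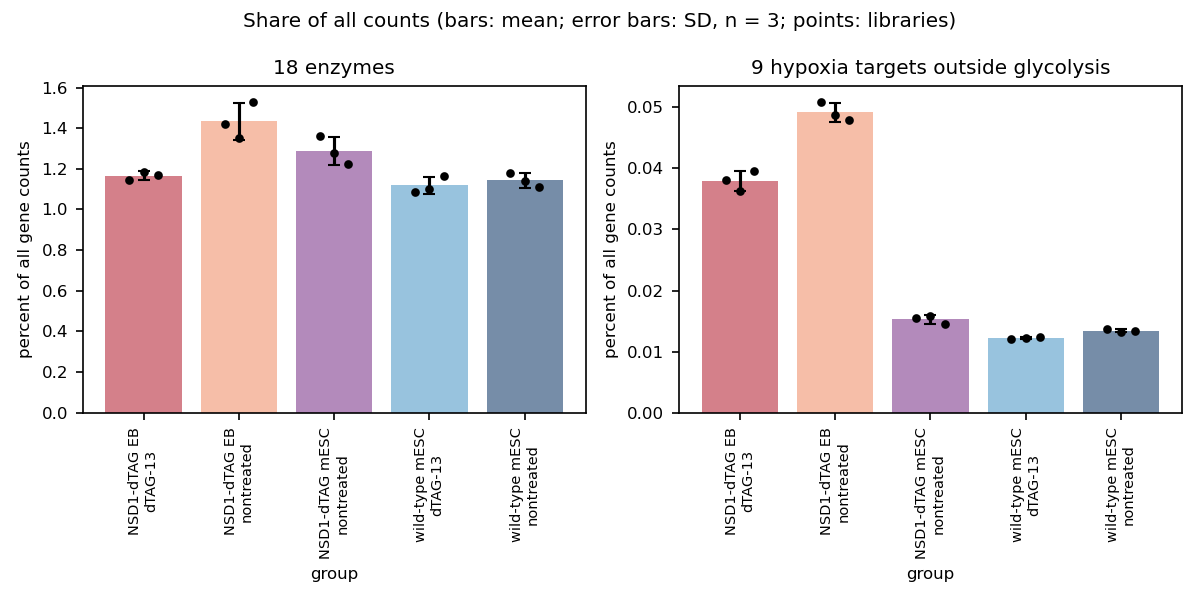
Share of all gene counts (percent, vertical axis) taken by the 18 enzymes (left) and by the 9 hypoxia targets outside glycolysis (right) in the 5 groups (horizontal axis); bars are means, error bars SD over 3 libraries, points single libraries. Hypoxia targets averaged 0.0492% in nontreated EBs against 0.0153% in NSD1-dTAG mESCs, while enzymes averaged 1.43% and 1.29%.

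Among single genes the highest mean levels in nontreated EBs were those of Aldoa, the main fructose bisphosphate aldolase here, at 895 ± 73.0 RPKM (SD, n = 3), and of Pkm, pyruvate kinase, at 699 ± 66.8 RPKM. In NSD1-dTAG mESCs the same genes averaged 763 ± 85.4 and 679 ± 62.9 RPKM. At the low end, Adm, the vasodilator peptide adrenomedullin, averaged 1.47 ± 0.326 RPKM in nontreated EBs and had 0, 0 and 2 counts in NSD1-dTAG mESCs.

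**Figure D2:**
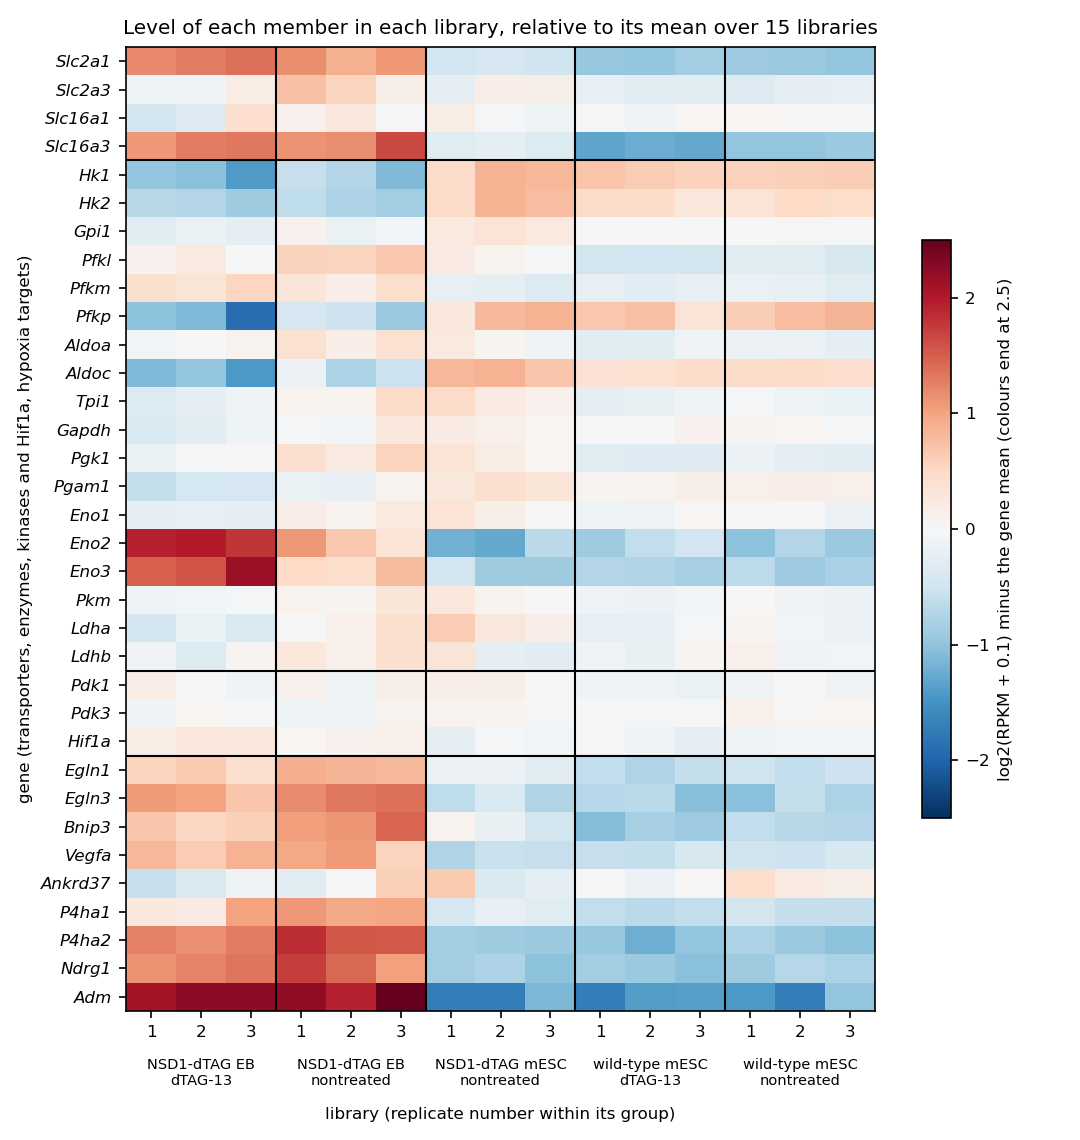
Level of each of the 34 genes (rows, by role) in each of the 15 libraries (columns, by group), as log2(RPKM + 0.1) minus the gene's mean over the libraries, with colours ending at 2.5. The hypoxia targets in the bottom block are red in the 6 EB columns except Ankrd37, whereas the enzyme block holds rows of both colours.

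Which of these genes differ between differentiated and stem cell state was addressed by nontreated NSD1-dTAG EBs against nontreated NSD1-dTAG mESCs. Of the 9 hypoxia targets outside glycolysis, 8 rose in EBs and 1, Ankrd37, did not pass the test, with a median log2 fold change of 1.58 beside 0.02 over the 15193 genes tested. Of the 18 enzymes 4 rose, 5 fell and 9 did not pass, with a median of 0.01. In this comparison 59.5% of all genes tested were called (33.1% higher, 26.3% lower), so the call of 20 of 34 genes is near the background. EB and mESC libraries did not overlap for 8 hypoxia targets, all higher in EBs, and for 10 enzymes, 4 higher and 6 lower, where 35.4% and 32.3% of all genes were higher and lower without overlap. The hypoxia targets that were called thus all had one sign, and the enzymes that were called had both. Serum medium, the absence of spike-in counts and the EB state change together here and cannot be told apart, and in bulk RNA fewer cells of a type and less RNA per cell cannot be told apart either.

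Of the 3 prolyl hydroxylase genes whose products mark HIF for degradation, Egln1 and Egln3 rose in EBs, and Egln2, which is not among the 34, fell (log2 fold change -0.82 ± 0.15 SE). Egln1 stood at 21.6, 20.9 and 20.3 RPKM in nontreated EBs, against 10.3, 10.3 and 9.43 RPKM in NSD1-dTAG mESCs (log2 fold change 1.11 ± 0.10 SE, adjusted p = 3.89e-05). Egln3 stood at 14.9, 16.2 and 17.0 RPKM in EBs, against 4.10, 4.94 and 3.79 RPKM in mESCs (1.95 ± 0.13 SE, adjusted p = 7.02e-06). For Egln1 and Egln3 every EB library lay above every mESC library. Hif1a itself, the alpha subunit gene that is controlled mainly through protein stability, averaged 34.1 ± 0.963 RPKM in EBs and 29.8 ± 2.31 RPKM in mESCs, and this difference did not pass the test (log2 fold change 0.24, adjusted p = 0.0774). Its groups did not overlap, with 33.0, 34.5 and 34.7 RPKM in EBs, against 27.2, 31.5 and 30.6 RPKM in mESCs. Of all genes tested 35.4% were higher without overlap.

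Bnip3, a mitophagy receptor, had 47.6, 49.6 and 62.6 RPKM in nontreated EBs, against 24.3, 20.1 and 16.6 RPKM in NSD1-dTAG mESCs (log2 fold change 1.43 ± 0.16 SE, adjusted p = 0.000132). Vegfa, the angiogenic growth factor, had 7.18, 7.72 and 5.40 RPKM in EBs, against 2.14, 2.44 and 2.41 RPKM in mESCs (1.58 ± 0.17 SE, adjusted p = 8.84e-05). Neither gene's groups overlapped. The alpha subunits of collagen prolyl hydroxylase moved by different amounts from different levels: P4ha1 had 27.1, 24.6 and 25.2 RPKM in EBs, against 9.47, 11.0 and 10.3 RPKM in mESCs, a log2 fold change of 1.37 ± 0.11 SE. P4ha2 had 3.48, 2.80 and 2.77 RPKM in EBs, against 0.441, 0.434 and 0.424 RPKM in mESCs, a log2 fold change of 2.84 ± 0.16 SE. Ndrg1, a stress-responsive cytoplasmic protein gene, rose by 2.42 ± 0.20 SE on the log2 scale, with 12.8, 10.3 and 7.81 RPKM in EBs, against 2.01, 2.17 and 1.80 RPKM in mESCs.

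Adm summed to 204 counts over the 3 nontreated EB libraries and to 2 over the 3 NSD1-dTAG mESC libraries, which at the libraries' totals is a ratio of 102 with an exact 95% interval of 27.8 to 844 that covers counting error only. Its fitted log2 fold change of 6.29 depends on the prior count. Ankrd37, a small ankyrin repeat protein gene, had 1.77, 2.12 and 3.37 RPKM in EBs, against 3.47, 1.69 and 1.83 RPKM in mESCs. Those groups overlap, and library 1 of the mESCs and library 3 of the EBs, both among the libraries that stand apart, hold the highest values. Ankrd37 shares 349 exon bases with Lrp2bp and 57 with Ufsp2 on the opposite strand, and the counted strand is not stated.

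Among the 4 transporters 3 rose and Slc16a1 did not pass the test. Slc2a1 (GLUT1) had 373, 313 and 354 RPKM in nontreated EBs, against 120, 126 and 118 RPKM in NSD1-dTAG mESCs, a log2 fold change of 1.56 ± 0.11 SE (adjusted p = 1.11e-05). Slc16a3 (MCT4), the lactate exporter of highly glycolytic cells, had 47.2, 48.7 and 68.1 RPKM in EBs, against 17.6, 18.4 and 17.1 RPKM in mESCs, a log2 fold change of 1.67 ± 0.15 SE (adjusted p = 3.02e-05). Neither gene's groups overlap. Slc2a3 (GLUT3) was called at 0.50 ± 0.19 SE (adjusted p = 0.0484), but its groups overlap, with 317, 280 and 210 RPKM in EBs against 163, 214 and 211 RPKM in mESCs, and 9 of 14 alternatives ended the call, with adjusted p up to 0.171, among them leaving out any single library other than EB nontreated library 3. Slc16a1 (MCT1), which carries lactate in both directions, averaged 76.1 ± 7.99 RPKM in EBs and 70.9 ± 7.94 RPKM in mESCs and was not called. With these changes Slc2a1 supplied 54.0, 52.7 and 62.8% of the summed RPKM of both glucose transporters in EBs, against 42.4, 37.0 and 36.0% in mESCs. Slc16a3 supplied 38.6, 36.6 and 49.8% of the summed monocarboxylate transporter level in EBs, against 18.1, 21.3 and 20.8% in mESCs.

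At the phosphorylation of glucose both hexokinase genes fell. Hk2, the inducible hexokinase, had 42.9, 38.8 and 36.6 RPKM in nontreated EBs, against 92.9, 121 and 115 RPKM in NSD1-dTAG mESCs (log2 fold change -1.43 ± 0.14 SE, adjusted p = 5.20e-05). Hk1, the broadly expressed hexokinase, had 6.41, 5.70 and 4.42 RPKM in EBs, against 13.3, 17.7 and 17.0 RPKM in mESCs (-1.49 ± 0.18 SE, adjusted p = 0.000163). Hk2 made up 87.8 ± 1.23% of their summed level in EBs and 87.3 ± 0.204% in mESCs, so the pair fell in step.

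Phosphofructokinase, which commits sugar phosphate to glycolysis, showed changes in opposite directions. Pfkl, the liver-type subunit, had 81.4, 80.3 and 87.3 RPKM in nontreated EBs, against 62.5, 57.6 and 52.9 RPKM in NSD1-dTAG mESCs (log2 fold change 0.57 ± 0.11 SE, adjusted p = 0.00200). Pfkm, the muscle-type subunit, rose by 0.61 ± 0.11 SE to a mean of 29.1 ± 2.75 RPKM in EBs, against 19.6 ± 0.869 RPKM in mESCs. Pfkp, the platelet-type subunit, had 7.89, 7.42 and 5.51 RPKM in EBs, against 12.9, 18.6 and 19.5 RPKM in mESCs (-1.25 ± 0.20 SE, adjusted p = 0.000901). Its share of the summed phosphofructokinase level was 5.87 ± 1.25% in EBs and 18.1 ± 4.10% in mESCs. Pfkp shares 748 exon bases with Pitrm1 on the opposite strand, whose log2 fold change was -0.05 (adjusted p = 0.661).

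Aldolase and enolase had a dominant paralog that was not called and minor paralogs that were. Aldoa made up 99.3 ± 0.122% of the summed aldolase level in nontreated EBs and 98.0 ± 0.150% in NSD1-dTAG mESCs, while Aldoc, known from brain, had 7.74, 4.94 and 5.88 RPKM in EBs, against 15.5, 15.9 and 14.03 RPKM in mESCs (log2 fold change -1.25 ± 0.17 SE, adjusted p = 0.000399). Eno1, the ubiquitous enolase, averaged 214 ± 12.9 RPKM in EBs and 215 ± 25.4 RPKM in mESCs. Eno2, the neuronal enolase, had 1.94, 1.43 and 1.13 RPKM in EBs, against 0.317, 0.296 and 0.507 RPKM in mESCs (2.05 ± 0.30 SE, adjusted p = 0.000494), and Eno3, the muscle enolase, had 11.8, 11.4 and 14.6 RPKM in EBs, against 5.97, 4.47 and 4.46 RPKM in mESCs (1.38 ± 0.17 SE, adjusted p = 0.000168). Eno1 still made up 93.8 ± 0.269% of summed enolase level in EBs and 97.6 ± 0.174% in mESCs.

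**Figure D3:**
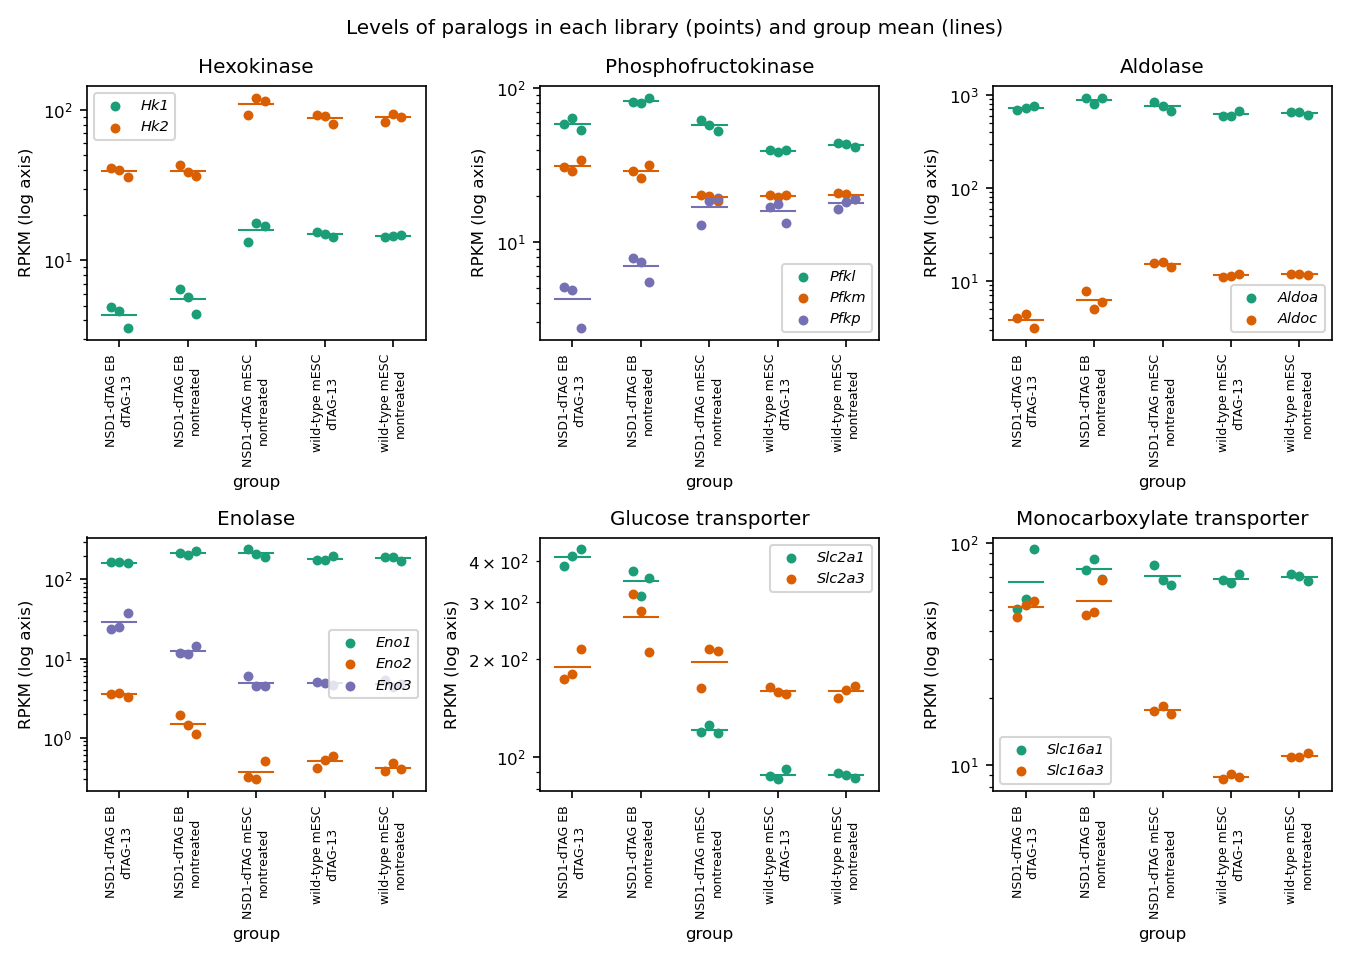
RPKM (log axis) of the paralogs of 6 families in the 5 groups; points are single libraries and lines group means. In EBs Hk1 and Hk2 lie below their mESC levels together, Pfkp and Aldoc lie below while Pfkl and Pfkm lie above, and Eno2, Eno3, Slc2a1 and Slc16a3 lie above.

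Beside the 8 enzymes called above, 1 other passed the test between EBs and mESCs. Pgam1, phosphoglycerate mutase, fell by 0.38 ± 0.11 SE on the log2 scale (adjusted p = 0.0164), a call that 4 of 14 alternatives ended (the replicate block, and leaving out NSD1-dTAG mESC library 2, EB nontreated library 1 or EB nontreated library 2), with adjusted p up to 0.0814. Gpi1, Aldoa, Tpi1, Gapdh, Pgk1, Eno1, Pkm, Ldha and Ldhb were not called, with log2 fold changes between -0.26 (Gpi1) and 0.33 (Ldhb). Without the libraries that stand apart, 7 enzymes rose in place of 4, the additions being Aldoa, Pgk1 and Ldhb. In that fit 38.4% and 34.8% of all genes were called higher and lower. Leaving out NSD1-dTAG mESC library 1 alone also gave 7, where 5416 of all 15626 genes tested were called higher. The pyruvate dehydrogenase kinases, which hold pyruvate back from mitochondria and are HIF targets, were not called: Pdk1 averaged 43.4 ± 3.95 RPKM in EBs and 45.4 ± 2.28 RPKM in mESCs, and Pdk3 averaged 16.6 ± 1.33 RPKM in EBs and 17.6 ± 0.804 RPKM in mESCs. The summed level of all 18 was 3608, 3399 and 4046 RPKM in EBs, against 4042, 3568 and 3310 RPKM in mESCs, which overlap.

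**Figure D4:**
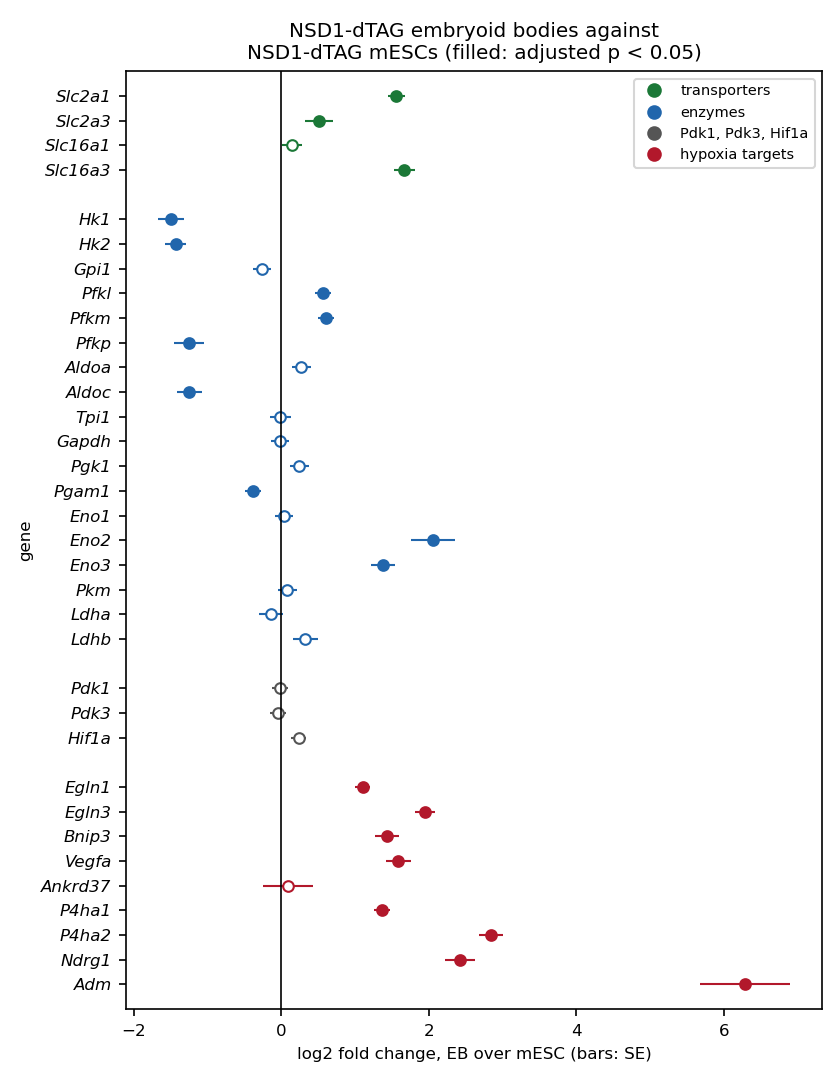
Log2 fold change of each gene in nontreated NSD1-dTAG EBs over NSD1-dTAG mESCs (horizontal axis, bars are SE), by role; filled points passed an adjusted p of 0.05. Of the 9 hypoxia targets 8 are filled and to the right of 0, whereas enzymes lie on both sides; the Adm value depends on the prior count.

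Genes of the same pathways outside the 34 were read from lists, beside 33.1% of all genes called higher and 26.3% lower in this comparison. Of 27 other hypoxia targets tested 14 rose and 6 fell in EBs, with a median log2 fold change of 0.45 beside 0.02 over all genes. Ddit4, an inhibitor of mTORC1 signalling, rose by 3.94 ± 0.14 SE, Igfbp3, an insulin-like growth factor binding protein, by 5.003 ± 0.28 SE and Loxl2, a lysyl oxidase, by 2.85 ± 0.17 SE, whereas Ak4, an adenylate kinase of mitochondria, fell by 1.77 ± 0.12 SE. Of 13 genes of the HIF machinery 2 rose, Hif3a by 2.64 ± 0.31 SE and Arnt2, a partner subunit, by 3.66 ± 0.25 SE, and 5 fell, among them Vhl, the ubiquitin ligase subunit that recognises hydroxylated HIF, at -0.67 ± 0.11 SE, and Egln2. Of 20 other glycolysis genes tested 6 rose and 7 fell, including Tigar, a fructose bisphosphatase, at -1.36 ± 0.10 SE, and Ldhc, the testis lactate dehydrogenase, at -2.06 ± 0.19 SE. Hkdc1, a hexokinase domain protein, summed to 723 counts in EBs and 0 in NSD1-dTAG mESCs.

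Branches that leave glycolysis were read against the same shares of all genes, 33.1% higher and 26.3% lower. Of 7 pentose phosphate genes 5 fell and 1 rose; Pgd, phosphogluconate dehydrogenase, fell by 0.91 ± 0.13 SE and Tkt, transketolase, by 0.64 ± 0.15 SE on the log2 scale. Of 12 genes for pyruvate entry into mitochondria 4 fell and 2 rose, among them the phosphatase genes Pdp2 at -1.38 ± 0.11 SE and Pdp1 at 1.51 ± 0.12 SE. Of 4 gluconeogenesis genes tested 2 rose, Fbp1 by 4.86 ± 0.39 SE and G6pc3 by 1.05 ± 0.13 SE, and Pck2 fell by 0.41 ± 0.12 SE.

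The effect of dTAG-13 during differentiation was addressed within NSD1-dTAG EBs. Of the 34 genes 2 rose, the minor enolases Eno2 and Eno3, and 4 fell, Pfkl, Pgk1, Eno1 and Bnip3, where 3.98% and 2.78% of the 15236 genes tested were called higher and lower. The nontreated EBs are the same libraries as in the comparison with mESCs. The 18 enzymes had a median log2 fold change of -0.35 and the 9 hypoxia targets one of -0.36, beside -0.01 over all genes tested. Below 0 were 15 of 18 and 9 of 9. In untagged wild-type mESCs dTAG-13 also left 14 of 18 enzymes and 8 of 8 tested hypoxia targets below 0. The medians there were -0.03 and -0.14. In the EB comparison the libraries that stand apart are both number 3. With the replicate number as a block there, 11 enzymes and 3 hypoxia targets fell in place of 3 and 1. The block called 5.17% of all genes lower. The 2 rises were called in both fits, where the block called 6.87% of all genes higher.

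The 3 enzymes that fell had log2 fold changes between -0.49 and -0.39. Pgk1, phosphoglycerate kinase, had 179, 194 and 207 RPKM in dTAG-13 EBs, against 267, 235 and 295 RPKM in nontreated EBs (log2 fold change -0.45 ± 0.11 SE, adjusted p = 0.0447). Pfkl had 58.6, 63.9 and 54.0 RPKM in dTAG-13 EBs, against 81.4, 80.3 and 87.3 RPKM in nontreated EBs (-0.49 ± 0.10 SE, adjusted p = 0.0272). Eno1 had 164, 164 and 160 RPKM in dTAG-13 EBs, against 214.5, 201 and 227 RPKM in nontreated EBs (-0.39 ± 0.09 SE, adjusted p = 0.0421). In all 3 genes the groups did not overlap. Eno1 has a near-identical copy, Eno1b, counted separately at 2957 to 6309 counts a library, and copies took 13.9 to 15.8% of the summed counts; Eno1b fell by 0.38 ± 0.09 SE in the same comparison.

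Leaving out EB nontreated library 1 or 2, or dTAG-13 library 1 or 2, left 0 genes of the 34 called lower. Over all genes those fits called 91 of 15549, 68 of 15547, 51 of 15598 and 168 of 15591 lower, against 424 of 15236 in the main fit. The loss of calls was thus not particular to the 34. Leaving out nontreated library 2 also left 0 called higher, where 114 of all genes were. Leaving out nontreated library 1 or dTAG-13 library 1 left 1 called higher, where 210 and 133 of all genes were. Leaving out library 3 of both groups, which stand apart, left the 2 more alike libraries of each group. It gave 18 called lower and 2 higher, Eno2 and Eno3, where 10.2% and 10.7% of all genes were. With the block, the enzymes called lower in addition to Pfkl, Pgk1 and Eno1 were Hk1, Pfkp, Aldoa, Tpi1, Gapdh, Pgam1, Ldha and Ldhb. Among these Ldha, the main lactate dehydrogenase, had 291, 359 and 307 RPKM in dTAG-13 EBs, against 403, 438 and 530 RPKM in nontreated EBs (log2 fold change -0.51 ± 0.13 SE, adjusted p = 0.0564, and 0.0304 with the block). Over all 18 enzymes, 12 had dTAG-13 EBs wholly below nontreated EBs and 2 wholly above, where 13.1% and 14.1% of genes tested did.

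Eno3 and Eno2 went the other way. Eno3 had 23.8, 25.04 and 37.5 RPKM in dTAG-13 EBs, against 11.8, 11.4 and 14.6 RPKM in nontreated EBs (log2 fold change 1.19 ± 0.18 SE, adjusted p = 0.0121). Eno2 had 3.59, 3.71 and 3.24 RPKM in dTAG-13 EBs, against 1.94, 1.43 and 1.13 RPKM in nontreated EBs (1.23 ± 0.20 SE, adjusted p = 0.0152). All dTAG-13 libraries lay above all nontreated ones for both genes. The share of the summed enolase level from Eno3 was 12.4, 12.99 and 18.7% in dTAG-13 EBs, against 5.18, 5.33 and 6.01% in nontreated EBs, while the summed level itself was 191, 193 and 200.5 RPKM in dTAG-13 EBs, against 228, 214 and 242.5 RPKM in nontreated EBs. The enolase total was therefore lower in dTAG-13 EBs despite the rises of both minor paralogs.

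Of the hypoxia targets, Bnip3 had 37.2, 33.0 and 34.6 RPKM in dTAG-13 EBs, against 47.6, 49.6 and 62.6 RPKM in nontreated EBs (log2 fold change -0.60 ± 0.12 SE, adjusted p = 0.0261). Egln1 (-0.32 ± 0.10 SE, adjusted p = 0.102) and P4ha2 (-0.44 ± 0.13 SE, adjusted p = 0.0912) were not called, but were with the block, at adjusted p = 0.0359 and 0.0481, in 1 fit of all libraries and without library 3 of both groups, and P4ha2 also by DESeq2. Egln3, Vegfa, Ankrd37, P4ha1, Ndrg1 and Adm were called neither without the block nor with it, with values between -0.50 (Ankrd37) and -0.06 (Adm). P4ha1 had 15.3, 14.7 and 25.5 RPKM in dTAG-13 EBs, against 27.1, 24.6 and 25.2 RPKM in nontreated EBs, and was called without dTAG-13 library 3 and, at -0.77, without library 3 of both groups, where Ndrg1 was called at -0.41. Hif1a (0.15, adjusted p = 0.305), Pdk1 and Pdk3 were not called. The Hif1a groups did not overlap, with 36.4, 38.3 and 38.3 RPKM in dTAG-13 EBs, against 33.0, 34.5 and 34.7 RPKM in nontreated EBs. Of all genes tested 14.1% were higher without overlap.

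The glucose transporters had opposite signs in dTAG-13 EBs, neither passing the test. Slc2a1 had 385, 413 and 435 RPKM in dTAG-13 EBs, against 373, 313 and 354 RPKM in nontreated EBs (log2 fold change 0.25, adjusted p = 0.204). Slc2a3 had 173, 180 and 215 RPKM in dTAG-13 EBs, against 317, 280 and 210 RPKM in nontreated EBs (-0.51, adjusted p = 0.114), and it was called at -0.75 without library 3 of both groups. The share of Slc2a1 in their summed level was 69.0, 69.7 and 66.9% in dTAG-13 EBs, against 54.0, 52.7 and 62.8% in nontreated EBs, without overlap. Slc16a1 and Slc16a3 were not called in the main fit. Without library 3 of both groups Slc16a1 was called lower. It had 50.6, 55.8 and 93.8 RPKM in dTAG-13 EBs, against 75.1, 84.5 and 68.6 RPKM in nontreated EBs.

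**Figure D5:**
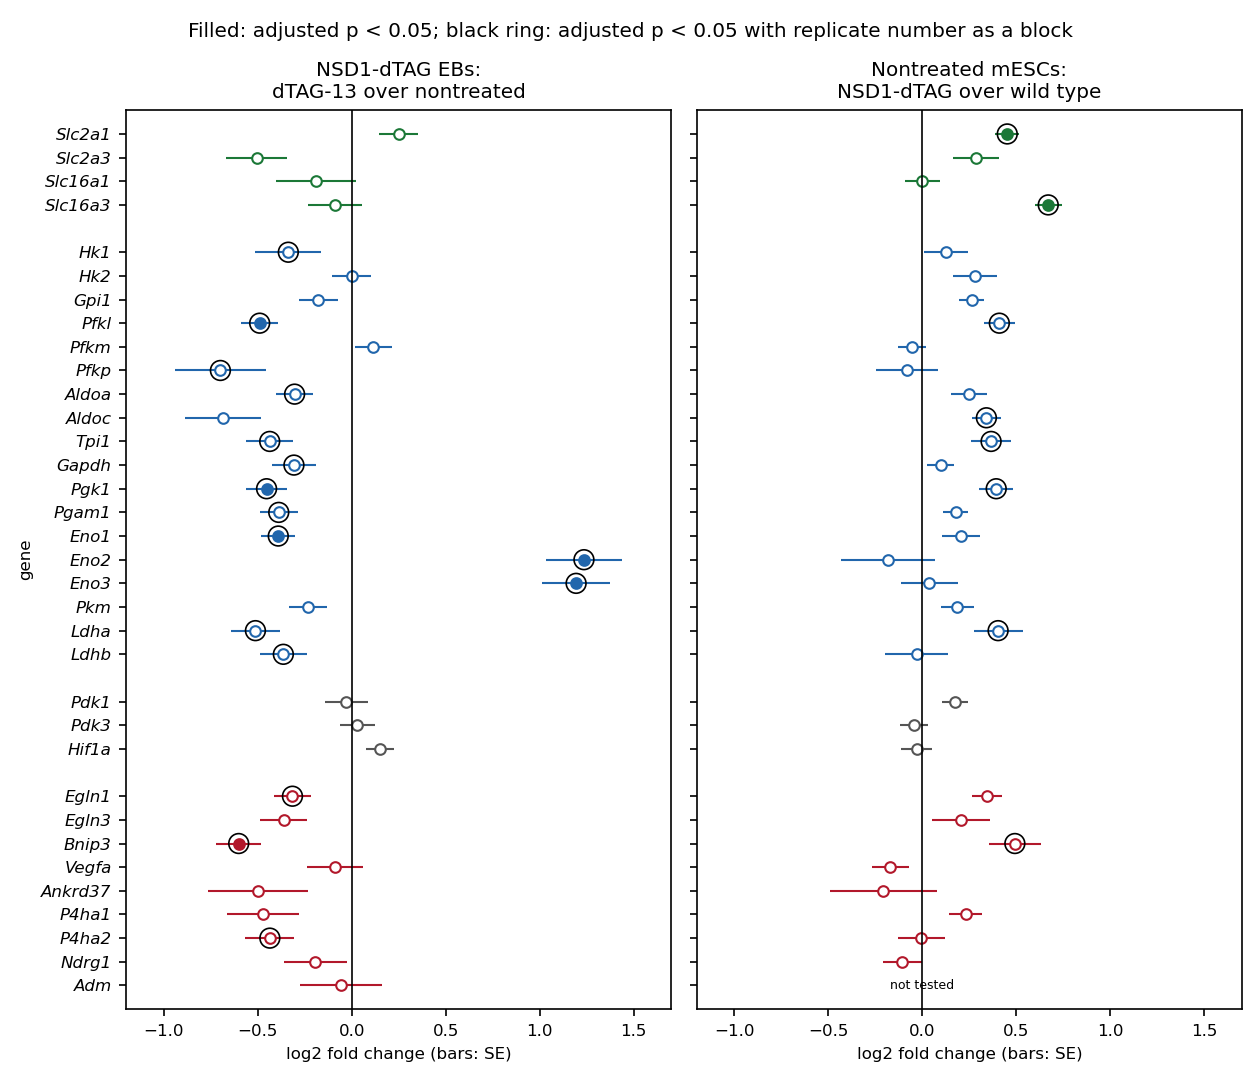
Log2 fold change (horizontal axes, bars are SE) of each gene for dTAG-13 over nontreated NSD1-dTAG EBs (left) and for NSD1-dTAG over wild-type nontreated mESCs (right); filled points passed an adjusted p of 0.05 and black rings passed it with replicate number as a block. On the left Eno2 and Eno3 stand at 1.23 and 1.19 while 28 of 34 genes are below 0; on the right 22 of 33 are above 0.

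Marker genes moved in the same comparison, where 3.98% and 2.78% of all genes were called higher and lower. Of the mesoderm markers 3 of 4 fell in dTAG-13 EBs, the list summing to 14.97, 34.6 and 6.75 RPKM in dTAG-13 EBs, against 158, 259 and 99.2 RPKM in nontreated EBs. Of the mESC markers 4 of 7 fell, the list summing to 576, 576.5 and 564.5 RPKM in dTAG-13 EBs, against 678, 680 and 761 RPKM in nontreated EBs. Of the endoderm markers 1 of 5 fell, and of the neuroectoderm markers 1 of 3 rose and 1 fell. None of the 4 epiblast markers was called. They summed to 362, 418.5 and 277 RPKM in dTAG-13 EBs, against 256, 260 and 381 RPKM in nontreated EBs, which overlap. Fibroblast and erythroid markers summed to at most 4.22 and 0.429 RPKM in any EB library, with Hbb-bh1 and Hba-x at 0 counts in all of them. The part of these shifts in the glycolytic changes was not tested.

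Outside the 34, where the shares of all genes called higher and lower were 3.98% and 2.78%, 4 of 27 other hypoxia targets fell in dTAG-13 EBs and 0 rose: Bnip3l, a mitophagy receptor, at -0.42 ± 0.08 SE, Tfrc, the transferrin receptor, at -0.56 ± 0.12 SE, Igfbp3 at -0.97 ± 0.21 SE and Loxl2 at -0.64 ± 0.15 SE. Of 19 other glycolysis genes tested 2 fell, Eno1b and Pfkfb3, and 2 rose, Pklr and Ldhc. Pfkfb3, which makes the allosteric activator of phosphofructokinase, had 5.57, 5.47 and 5.51 RPKM in dTAG-13 EBs, against 10.2, 10.0 and 7.40 RPKM in nontreated EBs (log2 fold change -0.73 ± 0.13 SE, adjusted p = 0.0202). Hif3a, a HIF alpha family gene whose products include inhibitors of the response, was the 1 called gene of 13 in the HIF machinery and had 17.4, 18.9 and 16.3 RPKM in dTAG-13 EBs, against 10.5, 9.64 and 11.6 RPKM in nontreated EBs (0.73 ± 0.10 SE, adjusted p = 0.0107). Of 7 pentose phosphate genes Rpia fell by 0.59 ± 0.14 SE, and none of 12 pyruvate entry genes or of 4 gluconeogenesis genes was called. At an unadjusted p under 0.05 were 3 and 0 of them, beside 3313 of all 15236 genes tested.

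Nontreated NSD1-dTAG mESCs against nontreated wild-type mESCs addressed the knock-in line itself. NSD1-dTAG mESCs are the libraries that EBs were compared with above. Both called genes of the 33 tested were transporters, Slc2a1 and Slc16a3, and both rose, where 0.547% of the 13895 genes tested were called higher and 1.32% lower. Slc16a3 had 17.6, 18.4 and 17.1 RPKM in NSD1-dTAG mESCs, against 10.8, 10.9 and 11.4 RPKM in wild-type mESCs (log2 fold change 0.67 ± 0.07 SE, adjusted p = 0.0147). Slc2a1 had 120, 126 and 118 RPKM in NSD1-dTAG mESCs, against 89.3, 88.2 and 86.1 RPKM in wild-type mESCs (0.45 ± 0.06 SE, adjusted p = 0.0267). Neither gene's groups overlapped, yet leaving out any library except NSD1-dTAG mESC library 1 ended both calls, as did scaling by spike-ins, while their log2 fold changes stayed between 0.55 and 0.70 for Slc16a3 and between 0.34 and 0.47 for Slc2a1. Over all genes, those fits without 1 library called 1 to 12 and spike-in scaling called 1, against 259 of 13895 in the main fit. The loss of calls was thus not particular to these 2 genes.

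The enzymes leaned the same way without passing. None of the 18 was called, and 9 had an unadjusted p under 0.05, where 1957 of all 13895 genes tested did. Of the 18, 14 were above 0, with a median log2 fold change of 0.19 beside 0.01 over all genes. For 10 enzymes every NSD1-dTAG library lay above every wild-type library, and for 0 below, where 10.0% and 11.5% of genes tested did so. Pgk1 had 257, 228 and 208 RPKM in NSD1-dTAG mESCs, against 182, 173 and 168.5 RPKM in wild-type mESCs (0.39 ± 0.09 SE, adjusted p = 0.0945). Ldha had 621, 486 and 448 RPKM in NSD1-dTAG mESCs, against 420, 381 and 365 RPKM in wild-type mESCs (0.40 ± 0.13 SE, adjusted p = 0.210). The libraries that stand apart in this comparison are both number 1. With the replicate number as a block, Pfkl, Aldoc, Tpi1, Pgk1, Ldha and Bnip3 joined the 2 transporters as called higher. The block called 2.10% of all genes higher and 3.55% lower.

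Library 1 of the NSD1-dTAG mESCs, which stands apart, held the highest value of its group for 11 of 18 enzymes. Without it 14 of the 33 genes were called higher, where 608 of all 14035 genes tested were called higher and 640 lower. Without it and wild-type library 1 there were 20, 13 of them enzymes, and 2 lower (Ldhb and Ankrd37). In that fit 11.5% and 11.2% of all genes were called higher and lower. The hypoxia targets were divided: Egln1 (0.34, adjusted p = 0.0973), Egln3, Bnip3 (0.49, adjusted p = 0.150) and P4ha1 were above 0, and Vegfa, Ankrd37, P4ha2 and Ndrg1 below. Of 25 other hypoxia targets tested Ak4 rose by 0.55 ± 0.09 SE and Ppfia4 fell by 0.95 ± 0.14 SE on the log2 scale.

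In wild-type mESCs, which carry no tag, dTAG-13 addressed the effect of the compound. None of the 33 genes tested was called, and of all 13784 genes 0.00% were, with 229 at an unadjusted p under 0.05 and 0 called by DESeq2. Log2 fold changes lay between -0.33 (Ankrd37) and 0.29 (Eno2), with 27 of 33 below 0. By role these were 14 of 18 enzymes, 8 of 8 tested hypoxia targets, 2 of 4 transporters, and Hif1a, Pdk1 and Pdk3. The hypoxia targets had a median of -0.14 and the enzymes one of -0.03, beside -0.01 over all genes tested. The nontreated libraries are those used against NSD1-dTAG mESCs. The lowest unadjusted p was that of Slc16a3, at 8.63, 9.15 and 8.86 RPKM with dTAG-13, against 10.8, 10.9 and 11.4 RPKM without (-0.31 ± 0.06 SE, unadjusted p = 0.00109). Without the 2 libraries that stand apart in this comparison Slc16a3 was called lower (-0.32), where 0.0866% and 0.0289% of all genes were called lower and higher. For 7 of the 33 genes every dTAG-13 library lay below every nontreated one and for 0 above, where 2.87% and 3.02% of genes tested did. Of the 7, 3 were hypoxia targets and 2 were enzymes.

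The response to dTAG-13 in NSD1-dTAG EBs minus that in wild-type mESCs was tested as an interaction over 12 libraries, in which cell state, duration of treatment and genotype differ together. Of the 34 genes 1 was called, Eno3, with a difference of 1.17 ± 0.23 SE (adjusted p = 0.0164), where 1.60% and 1.27% of 15855 genes were called higher and lower. Without wild-type nontreated library 1 its adjusted p was 0.0501. Eno3 had 5.03, 4.94 and 4.68 RPKM in dTAG-13 wild-type mESCs, against 5.29, 4.40 and 4.71 RPKM in nontreated ones, which overlap. Eno2 differed by 0.94 ± 0.29 SE (adjusted p = 0.128). The 18 enzymes had a median difference of -0.34 and the 9 hypoxia targets one of -0.21, beside -0.0024 over all genes tested, and none of those below 0 passed the test. At an unadjusted p under 0.05 were 11 of 18 enzymes and 1 of 9 hypoxia targets, beside 2363 of all 15855 genes tested. Without the libraries that stand apart 3 genes were called higher (Eno2, Eno3, Slc16a3) and 11 lower, where 5.83% and 6.03% of all genes were.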

How the data were processed

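Polyadenylated RNA of 15 libraries was sequenced. The deposited files hold raw read counts for each gene and ERCC spike-in. Among tools and builds, STAR, bcl2fastq 2.20.0.422, DESeq2 1.30.0, mm10 and GRCm38.p6 appear in the submitters' processing notes, and no source used here gives the counting settings. The kit keeps strand, but the counted strand is not stated, so reads of overlapping genes on opposite strands cannot be told apart. Of 55471 gene identifiers 55230 matched GENCODE M21.

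Each comparison was fitted on its own groups with edgeR 4.0.16 (TMM, filterByExpr, quasi-likelihood F test, R 4.3.3), with Benjamini-Hochberg adjustment over all genes tested and a call at adjusted p below 0.05; the standard error is the log2 fold change over the root of F. RPKM used union exon lengths. The fits were tested on simulated counts. DESeq2 1.42.0, RLE factors, no filter, 1 fit of all libraries, a gene-length offset, a replicate block, spike-in scaling (mESCs) and leaving out libraries were the alternatives.

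Same-numbered libraries had correlated deviations in NSD1-dTAG against wild-type mESCs (0.584, 0.289 and 0.285) and in dTAG-13 EBs (0.228, 0.268 and 0.373). This is a property of these data, and the labels give no shared origin. Differently numbered pairs of libraries 2 and 3 in those mESCs stood at 0.251 and 0.223. Differently numbered pairs of EB libraries 1 and 2 stood at 0.175 and 0.103. All other differently numbered pairs of these comparisons were negative. The libraries that stand apart share a number in both comparisons (1 in mESCs, 3 in EBs). Whether the block takes up more than their deviation was not tested. Near-identical copies were sought with blastn 2.17.0 (at least 95% identity over 200 bases). Promoter windows come from RefSeq, build GRCm38.p6. Exact intervals cover counting error only. All 34 genes are named by rule; of other lists at most 4 called genes, by p-value, are named. The 34 genes and the lists were chosen with earlier results of these data known.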

Additional observations from a re-analysis of the deposited data

Results flagged for a closer look

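Eno3, the muscle enolase gene, was the 1 gene of the 34 whose response to dTAG-13 differed between NSD1-dTAG EBs and wild-type mESCs by a test of the difference itself. The interaction was 1.166 ± 0.226 SE on the log2 scale, by edgeR's quasi-likelihood test with an adjusted p of 0.0164. In that test 1.60% and 1.27% of 15855 genes were called higher and lower, so 1 call among 34 genes is near the background. The log2 fold change was 1.19 ± 0.18 SE in EBs, with 3 of 3 dTAG-13 libraries above every nontreated one, and 0.02 ± 0.10 SE in wild-type mESCs, where the groups overlap. Over 20 alternatives the difference stayed between 0.939 and 1.28, and 1 of them, leaving out wild-type nontreated library 1, put the adjusted p at 0.0501. The EBs and mESCs differ in genotype, medium, duration of treatment and state, which cannot be told apart.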

How the results depend on the processing

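Of 29 calls among the 34 genes 17 held under every alternative. All 17 were calls of EBs against NSD1-dTAG mESCs. Each call of the other comparisons was lost under at least 1 alternative. No value changed sign with a call on either side, and 147 of 2622 refitted values changed sign with neither fit called. In EBs against NSD1-dTAG mESCs, 7718 to 10169 genes were called as each library was left out, with 14 to 17 of the 34 higher, 4 to 6 lower and 8 hypoxia targets higher each time. Enzymes called higher numbered 4 to 7 then, 7 with the gene-length offset, and again 7 without the libraries that stand apart. All genes called higher numbered 4577 to 5416, 5057 of 15188 and 5933 of 15447 in the same order, and 3141 to 4753 were lower as each library was left out. In dTAG-13 EBs 1625 genes were called by DESeq2, 1931 in 1 fit of all libraries, 1834 with the replicate block, 1815 with block and length offset, 3233 without the libraries that stand apart and 182 to 1293 leaving out 1 library. Of the 34, those lower were 12, 12, 14, 14, 18 and 0 to 5 in the same order, 10 with no filter and 8 with the length offset, and those higher 0 to 2. All genes called lower were 727 of 28566, 885 of 16024, 788 of 15236, 828 of 15230, 1581 of 15463 and 51 to 665 in that order. With no filter they were 710 of 28566, and with the length offset 558 of 15230. All genes called higher were 114 to 1652 over these fits. Enzymes lower were 9, 8, 11, 11, 11 and 0 to 2 in that order, 8 with no filter and 7 with the length offset, and enzymes higher 0 to 2. Hypoxia targets lower were 2, 3, 3, 3, 5 and 0 to 2. In NSD1-dTAG against wild-type mESCs 536 genes were called by DESeq2, 500 in 1 fit of all libraries, 785 with the block, 646 with the length offset, 1392 with both, 3123 without the libraries that stand apart, 1 with spike-in scaling and 1 to 1248 leaving out 1 library. Of the 34, those higher were 7, 5, 8, 8, 13, 20, 0 and 0 to 14 in that order, and those lower 2 without the libraries that stand apart and 0 to 1 leaving out 1. All genes called higher were 203 of 26385, 132 of 16024, 292 of 13895, 256 of 13889, 612 of 13889, 1587 of 13762, 0 of 13895 and 0 to 608 in that order. Those lower were 1536 without the libraries that stand apart and 1 to 640 leaving out 1. In wild-type mESCs 16 genes were called without the libraries that stand apart, 1 of the 34 among them, lower, and 0 otherwise. For the difference in response 781 genes were called by DESeq2, 915 with no filter, 723 with block and length offset, 1897 without the libraries that stand apart and 202 to 763 leaving out 1. Of the 34, those lower were 4, 3, 2, 11 and 0 to 1 in that order and 1 with the length offset, and those higher 2 with no filter, 3 without the libraries that stand apart and 0 to 2 leaving out 1. All genes called lower were 371 of 30609, 468 of 30609, 378 of 15848, 964 of 15990 and 72 to 378 in that order, and 316 of 15848 with the length offset. Those higher were 447 with no filter, 933 without the libraries that stand apart and 130 to 385 leaving out 1. The cause of these shifts was not tested, beyond the fewer libraries that the left-out fits hold. In wild-type dTAG-13 and in EBs against mESCs the replicate numbers share no deviations, with same-numbered correlations of -0.288, 0.233 and -0.252, and of -0.201, 0.127 and -0.268; there the replicate block gave 0 and 7999 calls. Depth limits Adm in mESCs, where each library held at most 2 counts.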
